A study of Mus musculus with 54 samples.

Results

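The comparison described here is that of dapagliflozin with vehicle in late proximal tubules of diabetic mice that lack SGLT1. It rests on 12 of the 52 libraries of the series, chosen by their genotype and treatment labels, 6 with dapagliflozin and 6 with vehicle. All 12 came from male DBA mice of 14 weeks that carried the Akita mutation on 1 copy of the insulin gene Ins2 (Ins2 Akita/+), a model of type 1 diabetes, and were Sglt1-/-. The dapagliflozin group ate a diet with dapagliflozin (10 mg/kg) over 2 weeks, and the other group was given vehicle over the same time. A further 2 pairs of groups serve for comparison. The first is Akita mice that were Sglt1+/+, with dapagliflozin (5 libraries) or vehicle (6 libraries). The other is nondiabetic Ins2+/+ mice that were Sglt1-/-, with dapagliflozin or vehicle (6 libraries each). Each sample pooled 70 to 80 tubules, dissected by laser where the lectin LTL stained and SGLT2 did not, and its total RNA was sequenced. Whether the samples of a group are different animals is not given in the labels, so p-values measure the spread between samples, which may be technical.

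The proximal tubule takes filtered glucose back from the urine. SGLT2 (Slc5a2), the target of dapagliflozin, does most of this work in the early S1 and S2 segments, and SGLT1 (Slc5a1) takes up what remains in the late S3 segment. When SGLT2 is blocked, more glucose and sodium reach the S3 segment, and in mice without SGLT1 the segment lacks its main apical glucose carrier. Glucose leaves the cell through GLUT2 (Slc2a2), and the proximal tubule also makes glucose, with Pck1 as a rate-limiting enzyme. The question of the comparison is what the drug does to expression in S3 tubules of diabetic mice when SGLT1 is missing.

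The labels held for the genotype, and S3 markers were high in every library, though some libraries held more RNA of S1 and S2 than others. Slc5a1 lay between 0.151 and 1.28 TPM (median 0.813) in dapagliflozin libraries and between 0.541 and 1.16 TPM (median 0.759) in vehicle libraries. In Akita wild-type mice its mean was 73.3 TPM with dapagliflozin (n = 5) and 86.2 TPM with vehicle (n = 6). TPM expresses RNA abundance relative to gene length and library size. Slc7a13, an amino acid carrier that marks S3, had 499 to 1478 TPM (median 987) in dapagliflozin libraries and 558 to 1301 TPM (median 1126) in vehicle libraries. The 17 S3 markers summed to between 16408 and 23555 TPM with dapagliflozin and between 17098 and 22740 TPM with vehicle, so that both groups covered the same range. The 15 markers of S1 and S2 summed to between 417 and 2096 TPM with dapagliflozin and between 492 and 2578 TPM with vehicle. Their score, the mean log2(TPM + 1), was 5.95 in dapagliflozin replicate 4, 6.25 in vehicle replicate 1 and 5.89 in vehicle replicate 5. In the other compared libraries it was at most 4.91. RNA of other cells was present in every library, with Umod of the thick ascending limb at 319 to 768 TPM with dapagliflozin and 116 to 698 TPM with vehicle. Of 15 lymphocyte markers only 7 were among the deposited genes. These were near 0, with sums of at most 14.6 TPM with dapagliflozin and 17.5 TPM with vehicle.

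The libraries differed in measures other than treatment. The sum of all TPM was 1368310 ± 179083 in dapagliflozin libraries and 1644200 ± 376928 in vehicle libraries (SD, n = 6 each; exact two-sided permutation test, p = 0.132, adjusted p = 0.320 over 4 library measures). Mitochondrial ribosomal RNA made up 31.3 ± 1.81% of the TPM with dapagliflozin and 35.2 ± 5.69% with vehicle (SD, n = 6 each; exact two-sided permutation test, p = 0.160, adjusted p = 0.320). Its highest share was 34.1% with dapagliflozin and 44.2% with vehicle, and 3 vehicle libraries (replicates 4, 5 and 6) lay above every dapagliflozin library. Between 16947 and 18109 genes had a value in dapagliflozin libraries and between 17431 and 18212 in vehicle libraries. Sequencing depth is unknown. Across the 15424 genes that averaged 1 TPM or more, libraries of the same group correlated with a median of 0.932. Libraries of different groups correlated with a median of 0.934. These correlations follow mostly the differences in level between genes, so they cannot show whether treatment changed a minority of genes.

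No gene passed the test between dapagliflozin and vehicle in Akita knockout tubules. The test covered 15424 genes whose mean over all libraries reached 1 TPM. At a threshold of 0.05 on the Benjamini-Hochberg adjusted p of limma, 0 were called higher and 0 lower, which is 0% in each direction, and the smallest adjusted p was 0.9999. At an unadjusted p under 0.05 there were 483 genes, 3.13% of those tested, of which 257 (1.67%) were higher and 226 (1.47%) lower with dapagliflozin. The median log2 difference of all tested genes was -0.01, with 7536 genes (48.9%) above 0 and 7887 (51.1%) below 0. All log2 differences are dapagliflozin minus vehicle on the log2(TPM + 1) scale, which understates differences of genes with few TPM.

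The intervals show what size of response these 12 libraries leave room for. The 95% interval of a gene's log2 difference extended by a median of 0.50 to either side. For 12087 genes, 78.4% of those tested, the whole interval lay between -1 and 1, that is, within a 2-fold difference of TPM + 1 either way. For genes with few TPM this leaves room for a larger fold difference of TPM itself. Among the 8898 genes that averaged 10 TPM or more this held for 8050 (90.5%), and among the 1501 genes with 100 TPM or more for 1388 (92.5%). For 4119 genes (26.7%) the interval lay within -0.5 and 0.5. A 2-fold response was therefore outside the interval of most well expressed genes taken singly, while smaller responses were inside it for many.

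**Figure D1:**
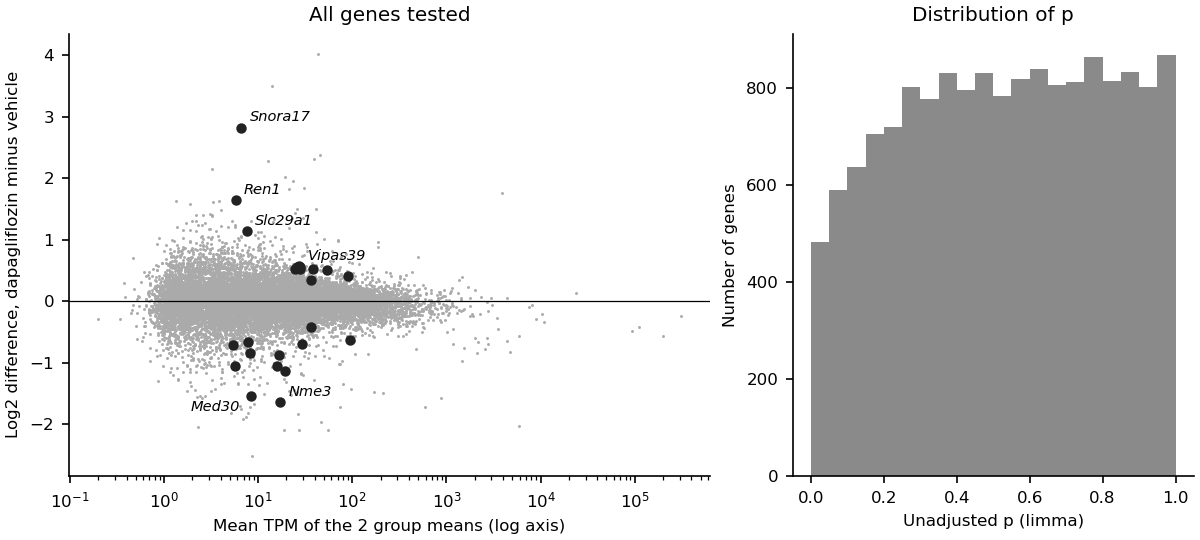
Left, each tested gene's log2 difference (dapagliflozin minus vehicle, Akita Sglt1 knockout) against the mean of the group means in TPM on a log axis. Black points are the 24 genes with the smallest p in either direction among genes with at least 5 TPM, predicted genes left out. Right, the number of genes in each bin of unadjusted p from limma. The bin next to 0, with 483 genes, is the lowest of the 20, and 0 genes passed at an adjusted p under 0.05.

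The glucose carriers showed no called difference, with 0 of 14 tested members of their list passing in either direction. Of these, 6 had a log2 difference above 0 and 8 below 0 (median -0.03), close to the median of all genes. Slc5a2, whose product is the target of the drug, had 7.20 to 163 TPM (median 23.6) with dapagliflozin and 8.95 to 164 TPM (median 18.8) with vehicle. One dapagliflozin library (replicate 4) and 2 vehicle libraries (replicates 1 and 5) were far above the others, and the groups overlapped over their whole range. These 3 libraries were also the highest in Slc34a1, another S1 and S2 marker, with 790, 941 and 747 TPM in the same order. The other compared libraries had at most 332 TPM of it, and the reason was not tested. The exact two-sided permutation test of the means (n = 6 each) gave p = 0.916, and the log2 difference of -0.05 had a 95% interval of -1.79 to 1.69, too wide to say whether the transcript differed.

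Slc5a10, which encodes SGLT5, a sodium-coupled carrier of mannose and fructose, was the most abundant carrier of the list, with 840 ± 286 TPM with dapagliflozin and 844 ± 205 TPM with vehicle (SD, n = 6 each). Its dapagliflozin values lay between 658 and 790.2 TPM in 5 of 6 libraries, and the remaining library had 1414 TPM. The log2 difference was -0.03 (95% interval -0.58 to 0.53). Slc2a2, the basolateral glucose exit carrier, had 14.8 to 33.4 TPM (median 22.7) with dapagliflozin and 14.6 to 48.5 TPM (median 25.8) with vehicle, a log2 difference of -0.25 (95% interval -0.89 to 0.39). It was -0.09 without vehicle replicate 1 and -0.42 without vehicle replicate 2. Where only 1 such value is given for a gene, it is the one nearest 0, and leaving out other libraries gave larger differences. Slc2a5, the fructose carrier GLUT5, ranged from 238 to 829 TPM (median 325) with dapagliflozin and from 190 to 541 TPM (median 344) with vehicle. For each of these carriers the groups overlapped. Slc5a3, the sodium-coupled carrier of the osmolyte myo-inositol, had the smallest p of the list. It had 49.996 to 115 TPM (median 75.03) with dapagliflozin and 25.1 to 76.1 TPM (median 45.3) with vehicle, and all 6 dapagliflozin values lay above the vehicle median. Its log2 difference of 0.65 (95% interval -0.13 to 1.44) did not pass.

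**Figure D2:**
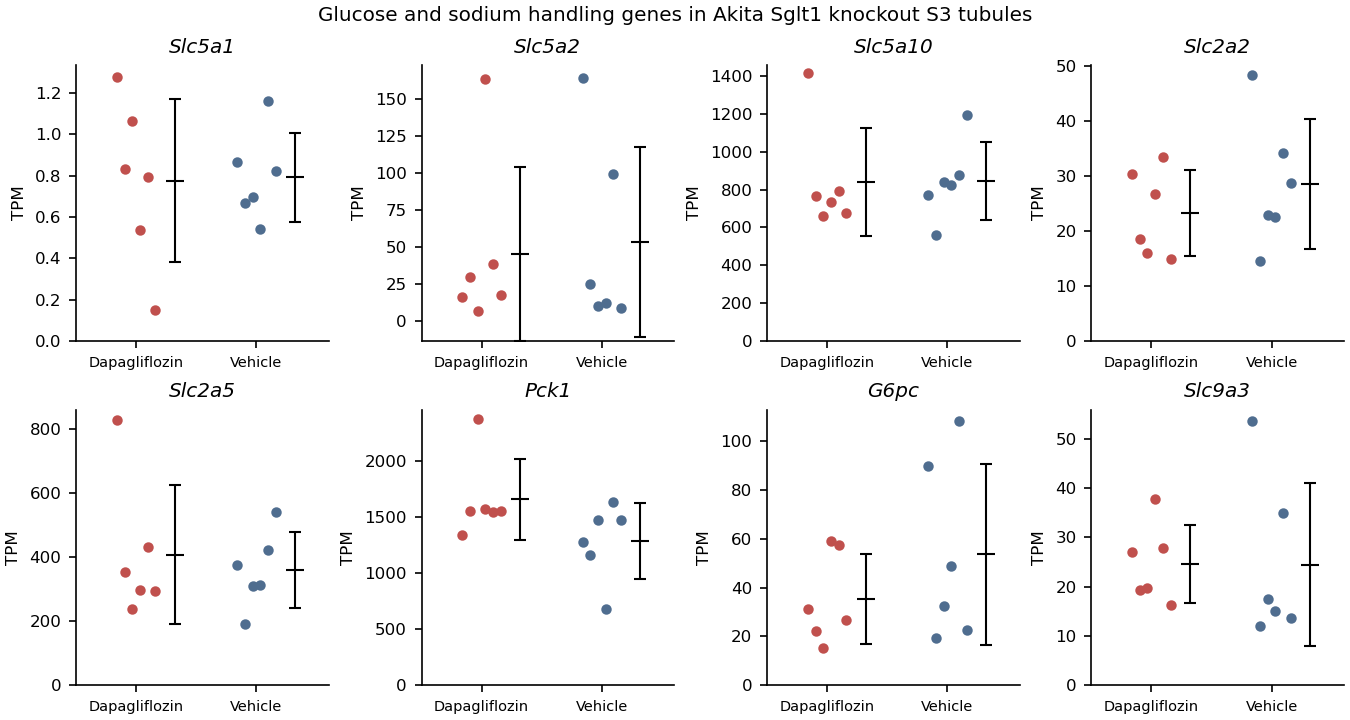
TPM of 8 genes of glucose and sodium handling in each library of Akita Sglt1 knockout tubules, with dapagliflozin (red, n = 6) and vehicle (blue, n = 6); the black mark and bar are the mean and SD. The groups overlapped for all 8 genes. Slc5a1 stayed at or under 1.28 TPM in both groups, and Slc5a2 had 1 high library with dapagliflozin and 2 with vehicle.

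Glucose production had 0 of 12 members called, with 4 above 0 and 8 below 0 (median -0.11). Pck1, the rate-limiting cytosolic enzyme of gluconeogenesis, had 1334 to 2369 TPM (median 1553) in dapagliflozin libraries and 676 to 1635 TPM (median 1372) in vehicle libraries. Of its dapagliflozin values 5 of 6 were above the vehicle median, and the ranges overlapped. Its log2 difference was 0.40 (95% interval -0.23 to 1.02). With single libraries left out it ran from 0.22 (without vehicle replicate 4) to 0.48 (without vehicle replicate 5). G6pc, which releases free glucose from glucose 6-phosphate, had 15.1 to 59.0 TPM (median 29.1) with dapagliflozin and 19.4 to 108 TPM (median 40.8) with vehicle, a log2 difference of -0.46 (95% interval -1.44 to 0.51), and -0.21 without vehicle replicate 5. Fbp1, the fructose bisphosphatase of the pathway, averaged 455 ± 91.7 TPM with dapagliflozin and 534 ± 112 TPM with vehicle (SD, n = 6 each), with overlapping values. Glycolysis was narrower. None of its 17 tested members was called, their median was -0.00, and all 17 intervals lay between -1 and 1. In the list of polyol and fructose enzymes 7 of 8 intervals lay within those bounds, with a median of 0.01. Factors and targets of ChREBP and MondoA, which sense intracellular sugar, had a median of -0.01 over 12 members. Among them Txnip, a target that restrains glucose uptake, had 94.9 to 182 TPM (median 114) with dapagliflozin and 81.4 to 111 TPM (median 95.3) with vehicle, with overlap and a log2 difference of 0.33 (95% interval -0.10 to 0.77), and 0.22 without dapagliflozin replicate 5.

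Sodium and acid transport had 0 of 16 members called, with 4 above 0 and 12 below 0 (median -0.05), and 13 intervals lay between -1 and 1. Slc9a3, the apical sodium-proton exchanger NHE3, which works beside the sodium-glucose carriers, averaged 24.7 ± 7.91 TPM with dapagliflozin and 24.5 ± 16.6 TPM with vehicle (SD, n = 6 each). Its values overlapped between the groups. Transport of amino acids (0 of 19 called, median -0.08), of organic ions (0 of 22, median -0.07), of phosphate with vitamin D handling (0 of 12, median -0.17) and of urate (0 of 10, median -0.16) likewise held no called gene. In megalin-cubilin endocytosis, the uptake of filtered protein, 0 of 14 members were called and all 14 intervals lay between -1 and 1. Rab7, a GTPase of late endosomes, had the smallest p there, with 105 to 189 TPM (median 144) with dapagliflozin and 157 to 291 TPM (median 173) with vehicle.

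Fuel use was examined through lists of fat oxidation, ketone bodies and mitochondria. Fatty acid oxidation with PPAR alpha targets had 0 of 23 members called, with 6 above 0 and 17 below 0 (median -0.15). Plin2, a coat protein of lipid droplets, was at 3.78 to 44.7 TPM (median 9.35) with dapagliflozin and 3.82 to 7.43 TPM (median 5.34) with vehicle, and the groups overlapped. Its log2 difference of 0.88 (95% interval 0.02 to 1.73) became 0.48 without dapagliflozin replicate 4. Ketone body and monocarboxylate handling had 0 of 12 called, with 6 on each side of 0. The citric acid cycle had 0 of 20 called and 17 below 0 (median -0.10), and each of the 20 intervals lay between -1 and 1.

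Transcripts of the mitochondrial genome had lower means with dapagliflozin for 13 of 13 genes, against 51.1% of all genes below 0, but 0 of 13 were called. These transcripts encode subunits of the respiratory chain and the ATP synthase. Summed over the 13 genes they came to 15880 to 30082 TPM (median 22310) in dapagliflozin libraries and 20106 to 79196 TPM (median 34718) in vehicle libraries. Vehicle replicates 4 and 5 lay above all dapagliflozin libraries by the most, and the ranges overlapped. The median log2 difference was -0.70. mt-Co3, a subunit of complex IV, had 559 to 1539 TPM (median 705) with dapagliflozin and 483 to 4936 TPM (median 1667) with vehicle, a log2 difference of -0.98 (95% interval -1.83 to -0.14), and -0.65 without vehicle replicate 4. mt-Co1 of the same complex averaged 4659 ± 1153 TPM with dapagliflozin and 7229 ± 3366 TPM with vehicle (SD, n = 6 each). mt-Nd4l was listed at 0 in 2 dapagliflozin libraries and in 1 vehicle library, while other libraries reached 1356 TPM with dapagliflozin and 1811 TPM with vehicle, so that its 0 may be a failed estimate.

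The sum of TPM and the share of mitochondrial ribosomal RNA moved with these transcripts, as given above. With the log2 sum of TPM as a covariate the median was -0.24 and 12 of 13 were below 0. With the percent of mitochondrial ribosomal RNA as a covariate it was -0.46 with 13 below 0. Leaving out single libraries gave medians from -0.84 (without dapagliflozin replicate 2) to -0.44 (without vehicle replicate 4). In Akita wild-type tubules the median of dapagliflozin minus vehicle was -0.40, and in nondiabetic knockout tubules it was 0.40.

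Nuclear genes of the respiratory chain had 0 of 43 members called, with 2 above 0 and 41 below 0 (median -0.24), and 36 intervals lay between -1 and 1. Cox5a, a subunit of complex IV, had 64.7 to 138 TPM (median 113) with dapagliflozin and 93.6 to 251 TPM (median 154) with vehicle, with overlap. Cytosolic ribosomal proteins had 0 of 40 called, with all 40 below 0 (median -0.28). Rps16, of the small ribosomal subunit, had 37.4 to 73.6 TPM (median 53.7) with dapagliflozin and 49.2 to 131 TPM (median 79.5) with vehicle, a log2 difference of -0.56 (95% interval -1.11 to -0.02). These 2 lists also moved with the sum of TPM. With its log2 as a covariate the median of the respiratory chain was -0.01 with 27 of 43 below 0, and that of the ribosomal proteins was -0.06 with 29 of 40 below 0. Without vehicle replicate 5 the medians were -0.13 for the respiratory chain and -0.16 for the ribosomal proteins. Proteasome subunits had 0 of 22 called and 18 below 0 (median -0.12). The interferon response had 0 of 26 called and 23 below 0 (median -0.27, and -0.17 without dapagliflozin replicate 2). Psmb8, a subunit of the immunoproteasome, had 2.53 to 8.54 TPM (median 6.31) with dapagliflozin and 4.79 to 17.96 TPM (median 9.3997) with vehicle, and the ranges overlapped.

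**Figure D3:**
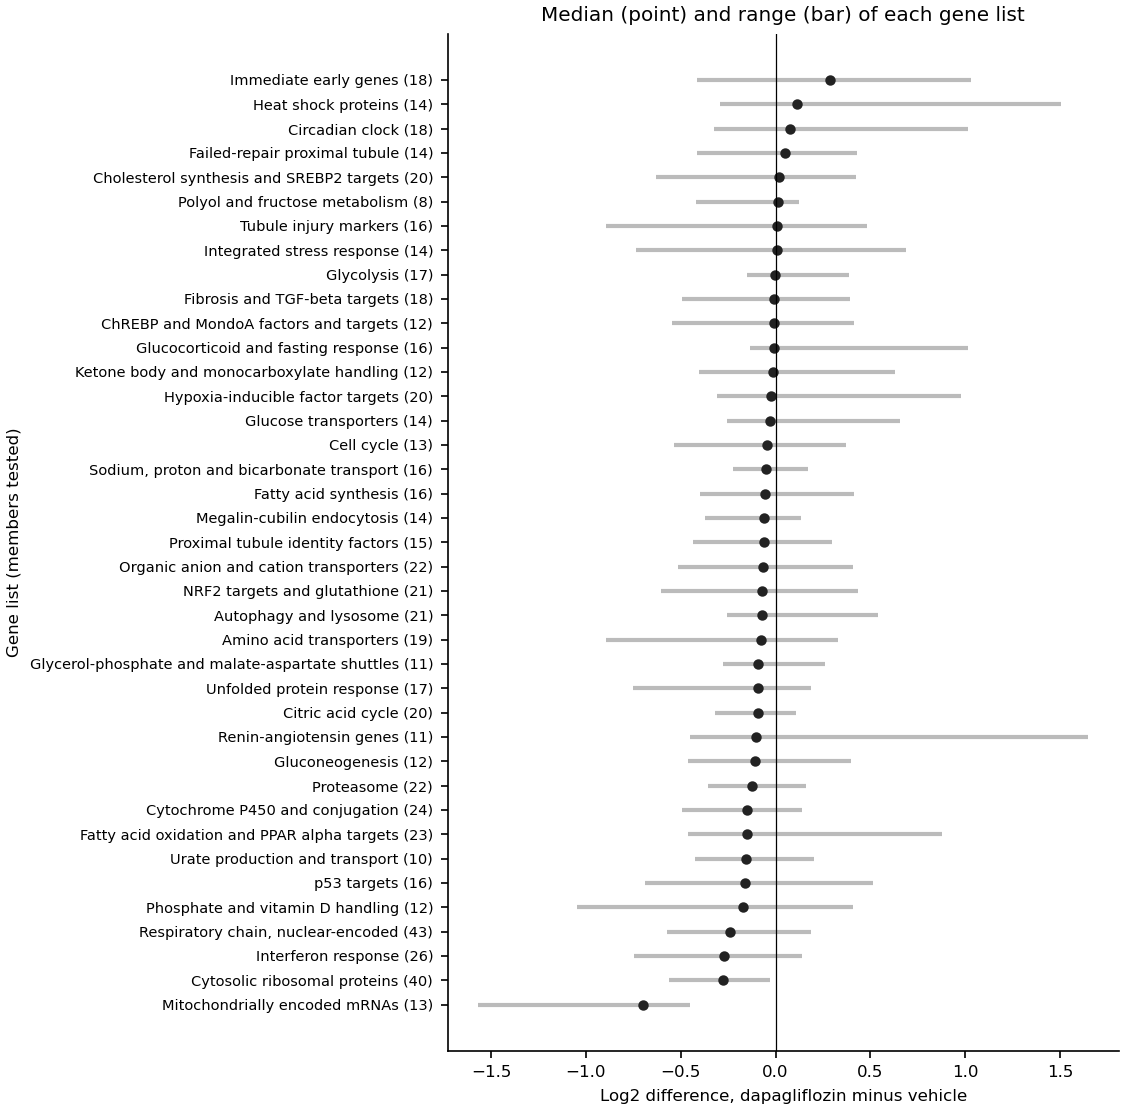
Log2 difference (dapagliflozin minus vehicle, Akita Sglt1 knockout) of 39 gene lists, ordered by the median of their tested members (point), with the range over members (bar); the number tested is in brackets. Immediate early genes are highest (median 0.29) and mitochondrially encoded mRNAs lowest (median -0.70), and no member of any list passed over all genes.

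Stress and injury programs were searched as well. Heat shock proteins, the chaperones that refold damaged proteins, had 0 of 14 called, with 11 above 0 and 3 below 0 (median 0.11). The median was 0.05 without dapagliflozin replicate 3 and 0.24 without vehicle replicate 5, and up to 5 members were below 0 when single libraries were left out. With the log2 sum of TPM as a covariate it was 0.27, with 13 above 0. Hsph1, a co-chaperone of the HSP70 family, had 119 to 625 TPM (median 203) with dapagliflozin and 72.8 to 174 TPM (median 106) with vehicle, and all 6 dapagliflozin values lay above the vehicle median. Its log2 difference was 0.96 (95% interval 0.18 to 1.75), and 0.66 without dapagliflozin replicate 3. Hspa1b, an inducible HSP70, had 18.5 to 168 TPM (median 34.5) with dapagliflozin and 7.46 to 56.4 TPM (median 10.9) with vehicle, a log2 difference of 1.5 (95% interval 0.09 to 2.91). Replicate 3 was the highest dapagliflozin library for both genes, and replicate 5 the highest vehicle library.

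Hspa1a, the neighbouring copy of Hspa1b, had 9.43 to 127 TPM (median 21.7) with dapagliflozin and 2.25 to 35.6 TPM (median 6.53) with vehicle, in the same order of highest libraries. The 2 genes are near-identical copies, so their reads may be shared between them. Their 250 bases before the start are shown because the pair varied together across libraries and carries the same promoter: 247 of 250 bases are the same. Capitals mark the heat shock element searched, GAANNTTC, which reads the same on both strands and starts 104 bases before the gene in each. It occurs in 6.69% of 32851 RefSeq promoter windows of this length (GRCm38), and a match is not evidence of binding. The window before Hspa1a is chr17:34972157-34972406 and that before Hspa1b is chr17:34959239-34959488, both on the minus strand.
Hspa1a: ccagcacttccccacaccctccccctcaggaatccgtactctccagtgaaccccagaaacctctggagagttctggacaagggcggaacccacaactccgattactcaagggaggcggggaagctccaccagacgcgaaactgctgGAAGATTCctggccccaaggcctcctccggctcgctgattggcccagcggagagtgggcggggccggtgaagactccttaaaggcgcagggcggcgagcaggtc
Hspa1b: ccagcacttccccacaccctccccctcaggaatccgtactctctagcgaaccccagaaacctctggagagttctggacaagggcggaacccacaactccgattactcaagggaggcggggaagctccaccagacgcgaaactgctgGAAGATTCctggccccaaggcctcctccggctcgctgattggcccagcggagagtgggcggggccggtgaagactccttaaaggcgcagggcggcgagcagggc

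Immediate early genes, which respond within minutes to stimuli and to handling of tissue, had 0 of 18 called, with 12 above 0 and 6 below 0 (median 0.29). Without dapagliflozin replicate 3 the median was 0.07, over the 17 members that still averaged 1 TPM or more, so the 2 medians are not over the same genes. Fosb, an AP-1 subunit, was at 0 to 6.53 TPM (median 0.976) with dapagliflozin and 0 to 0.0904 TPM (median 0.0687) with vehicle. Its highest value was dapagliflozin replicate 3, the library that was also highest for Hspa1b and Hsph1. Per1, a clock gene that also responds to glucocorticoids, had 38.4 to 110 TPM (median 63.0) with dapagliflozin and 9.55 to 85.7 TPM (median 28.2) with vehicle. Its log2 difference of 1.01 (95% interval -0.05 to 2.08) did not pass, and the clock list had 0 of 18 called.

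Tubule injury markers had 0 of 16 called, with 8 on each side of 0 (median 0.01). Havcr1, which encodes KIM-1, an injury protein of the proximal tubule, had 0.799 to 9.005 TPM (median 5.001) with dapagliflozin and 1.62 to 10.2 TPM (median 3.58) with vehicle, a log2 difference of 0.05 (95% interval -1.04 to 1.13). The failed-repair list had 0 of 14 called, fibrosis and TGF-beta targets 0 of 18, and the cell cycle 0 of 13. p53 targets had 0 of 16 called and 13 below 0 (median -0.16). Sesn2, a stress-induced inhibitor of mTORC1 signalling, had 5.12 to 10.7 TPM (median 6.16) with dapagliflozin and 7.07 to 16.8 TPM (median 10.8) with vehicle, a log2 difference of -0.61 (95% interval -1.08 to -0.15). Mdm2, the p53 antagonist and target, averaged 66.8 ± 13.2 TPM with dapagliflozin and 60.5 ± 13.03 TPM with vehicle (SD, n = 6 each). Both genes had overlapping groups. Hypoxia-inducible factor targets (0 of 20 called, median -0.02), NRF2 targets (0 of 21, median -0.07), the unfolded protein response (0 of 17, median -0.09) and the integrated stress response (0 of 14, median 0.01) held no called member. Ankrd37, a small HIF-induced gene, had the smallest p among the hypoxia genes, with 1.21 to 3.89 TPM (median 2.92) with dapagliflozin and 0.402 to 1.56 TPM (median 0.842) with vehicle.

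Lipid synthesis gave the same picture, with 0 of 20 cholesterol genes called (median 0.02) and 0 of 16 fatty acid synthesis genes called (median -0.06). Cytochrome P450 and conjugation enzymes had 0 of 24 called and 19 below 0 (median -0.15). Autophagy and lysosome genes had 0 of 21 called, of which 20 intervals lay between -1 and 1. Tfeb, the transcription factor that drives lysosome genes, had 10.0 to 29.4 TPM (median 24.7) with dapagliflozin and 10.9 to 22.2 TPM (median 14.5) with vehicle. The shuttles that carry reducing equivalents into mitochondria had 0 of 11 called and all 11 intervals within those bounds. Glucocorticoid and fasting genes had 0 of 16 called (median -0.01). Transcription factors of proximal tubule identity had 0 of 15 called, and 14 intervals lay between -1 and 1. Esrrg, a nuclear receptor that drives mitochondrial genes, had the smallest p of that list, with 45.5 to 81.3 TPM (median 64.6) with dapagliflozin and 67.03 to 111 TPM (median 84.1) with vehicle. In all, 654 distinct genes of the 39 lists were tested, 0 passed, and for 514 the interval lay between -1 and 1.

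Among the members of the 39 pathway lists, 1 gene had groups that did not overlap. Ren1, which encodes renin and is made by granular cells of the afferent arteriole, had 3.79 to 30.9 TPM (median 6.03) with dapagliflozin and 0.928 to 2.69 TPM (median 1.59) with vehicle. Over all tested genes, 20 (0.13%) were higher and 9 (0.0584%) lower with no overlap. Its log2 difference was 1.65 (95% interval 0.51 to 2.79; limma unadjusted p = 0.00561, Benjamini-Hochberg adjusted p = 0.9999), and 1.26 without replicate 6, the library with 30.9 TPM. In the other pairs Ren1 averaged 3.09 TPM with dapagliflozin and 2.54 TPM with vehicle in Akita wild-type tubules, and 6.27 TPM with dapagliflozin and 3.50 TPM with vehicle in nondiabetic knockout tubules. DBA mice carry a near-identical renin gene, Ren2, so the reads of Ren1 are uncertain.

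The 14 tested markers of stroma, pericytes and smooth muscle, Ren1 among them, had a median log2 difference of 0.02, with 8 above 0 and 6 below 0. They summed to 141 to 198 TPM with dapagliflozin and 87.9 to 260 TPM with vehicle, and their part in the Ren1 value was not tested. Postn, a matrix protein of activated stroma in the same list, did not overlap either, with 1.599 to 3.33 TPM (median 2.15) with dapagliflozin and 0.246 to 1.44 TPM (median 0.822) with vehicle. Within the renin-angiotensin list Agtr1a, the angiotensin II receptor, had 6.11 to 10.7 TPM (median 9.87) with dapagliflozin and 10.4 to 20.1 TPM (median 12.1) with vehicle. Atp6ap2, the prorenin receptor, had 13.5 to 22.2 TPM (median 18.3) with dapagliflozin and 16.5 to 27.8 TPM (median 26.5) with vehicle. For both genes the ranges overlapped and every dapagliflozin value lay below the vehicle median. Of the 11 tested members 0 were called, with 4 above 0 and 7 below 0.

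The thick ascending limb, a neighbouring segment in the outer medulla, had markers with higher means in dapagliflozin libraries for 8 of 9 genes (median log2 difference 0.68), and 0 were called. Markers of the limb summed to 808 to 1821 TPM (median 1568) with dapagliflozin and 448 to 1390 TPM (median 1169) with vehicle. Umod, the most abundant urinary protein, had a median of 671 TPM with dapagliflozin and 419 TPM with vehicle, a log2 difference of 0.71 (95% interval 0.01 to 1.42), and 0.39 without vehicle replicate 5. Slc12a1, the sodium-potassium-chloride carrier of the limb, had 142 to 322 TPM (median 246) with dapagliflozin and 65.9 to 212 TPM (median 129) with vehicle. Medians of the list under single left-out libraries ran from 0.46 (without vehicle replicate 5) to 0.81. The median was 0.40 with the log2 sum of TPM as a covariate and 0.38 without the 3 libraries highest in Slc5a2, with 8 of 9 above 0 in both. In Akita wild-type tubules the list had a median of -0.38 and in nondiabetic knockout tubules 0.09. In such pooled tubules, more neighbouring tissue and more RNA per neighbouring cell cannot be told apart. The thin limb list had 6 of 8 members above 0 (median 0.02), the principal cell list 8 of 9 (median 0.20), and the list of the distal convoluted and connecting tubule 4 of 8 (median -0.00). The highest log2 difference of the thin limb list was that of Slc14a2 (1.31), and of the principal cell list that of Aqp2 (0.82). Slc14a2, a urea carrier of the thin limb and collecting duct, had 0.508 to 19.6 TPM (median 6.26) with dapagliflozin and 0.372 to 5.37 TPM (median 1.42) with vehicle. Aqp2, the water channel of the collecting duct, had 14.8 to 72.7 TPM (median 45.1) with dapagliflozin and 14.2 to 41.1 TPM (median 19.2) with vehicle. The drug difference of Slc14a2 was 1.05 in Akita wild-type and 1.78 in nondiabetic knockout tubules. That of Aqp2 was -0.05 and 1.35 in the same order, and neither gene was called there. Macrophage and dendritic cell markers had 3 of 13 above 0 (median -0.27), with sums of 450 to 613 TPM with dapagliflozin and 427 to 750 TPM with vehicle.

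**Figure D4:**
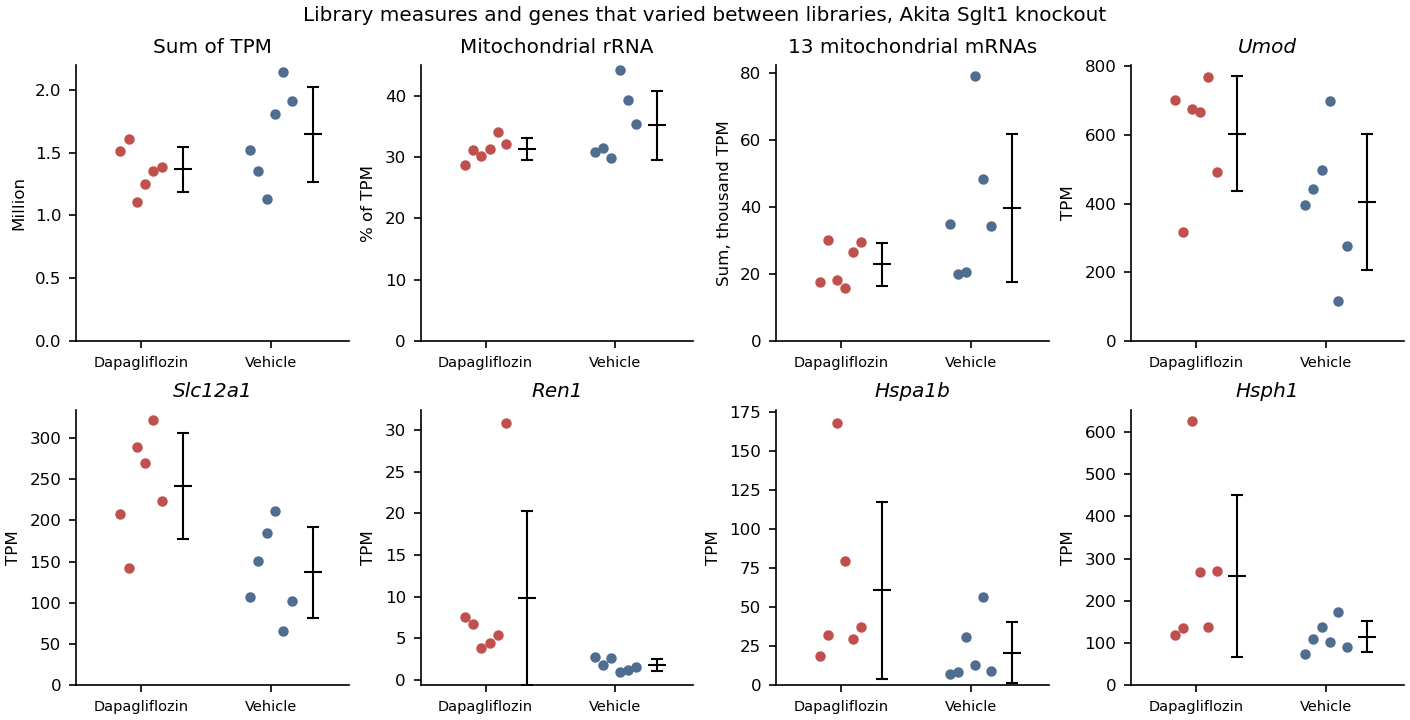
Library measures (sum of TPM, percent of TPM from mitochondrial rRNA and sum of 13 mitochondrial mRNAs, each in the unit on its axis) and TPM of 5 genes in each Akita Sglt1 knockout library with dapagliflozin (red, n = 6) or vehicle (blue, n = 6); the black mark and bar are the mean and SD. The 3 vehicle libraries with the highest mitochondrial rRNA share lie above every dapagliflozin library, and Ren1 is the only panel whose groups do not overlap.

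The genes with the smallest p, among those with at least 5 TPM and without predicted genes, are given as values, since none passed. Among those with higher means in dapagliflozin libraries, Vipas39, which acts with Vps33b in vesicle sorting, had 28.2 to 42.5 TPM (median 29.9) with dapagliflozin and 17.98 to 25.5 TPM (median 21.8) with vehicle, with no overlap. Its log2 difference was 0.57 (95% interval 0.26 to 0.88; limma unadjusted p = 0.000487). Nup153, a nucleoporin of the nuclear basket, had 22.0 to 40.9 TPM (median 30.6) with dapagliflozin and 15.6 to 24.6 TPM (median 19.6) with vehicle. Slc29a1, the equilibrative nucleoside transporter ENT1, had 4.64 to 18.3 TPM (median 11.4) with dapagliflozin and 1.45 to 7.84 TPM (median 3.69) with vehicle, a log2 difference of 1.14 (95% interval 0.41 to 1.87). For the last 2 genes the ranges overlapped, and all 6 dapagliflozin values lay above the vehicle median. Uspl1, Clk3 (a kinase of splicing factors), Sec61a2, Optn (optineurin, an autophagy receptor), Alkbh1 (a demethylase of DNA and RNA), Prdm2 and Grk2 (a kinase of G protein-coupled receptors) had log2 differences between 0.34 and 0.56. The snoRNA Snora17 (chromosome 2, 26639190 to 26639321, GRCm38) was listed at 0 in all 6 vehicle libraries and in 2 dapagliflozin libraries, while the other 4 dapagliflozin libraries had 10.4, 12.6, 21.6 and 35.1 TPM. Its fitted difference depends on the added 1 TPM and is not used here.

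Among genes with lower means, Nme3, a nucleoside diphosphate kinase, had 0 to 14.998 TPM (median 11.8) with dapagliflozin and 15.2 to 40.9 TPM (median 21.5) with vehicle, with no overlap. It had the smallest p of all named genes (log2 difference -1.65, 95% interval -2.50 to -0.79; limma unadjusted p = 0.000316). Nme3 overlaps Mrps34 on the same strand and Mapk8ip3 on the other strand, so its reads are uncertain. It was listed at 0 in dapagliflozin replicate 4, which may be a failed estimate, and without that library the log2 difference was -1.06. Tbc1d7, a subunit of the TSC complex that restrains mTORC1, had 1.05 to 4.63 TPM (median 3.74) with dapagliflozin and 4.34 to 9.92 TPM (median 8.53) with vehicle, a log2 difference of -1.05 (95% interval -1.65 to -0.45). Ramp2, the partner of the calcitonin receptor-like receptor in adrenomedullin signalling, had 3.71 to 7.48 TPM (median 5.50) with dapagliflozin and 9.09 to 12.3 TPM (median 10.7) with vehicle, with no overlap. It overlaps Vps25 on the same strand. Haus7, of the augmin complex of the spindle, had 5.52 to 15.98 TPM (median 12.4) with dapagliflozin and 17.8 to 45.1 TPM (median 25.2) with vehicle, again with no overlap. Med30, a Mediator subunit, had 1.38 to 8.30 TPM (median 3.34) with dapagliflozin and 8.10 to 23.1 TPM (median 11.8) with vehicle, with a narrow overlap. The log2 differences of Tmem50b, Armc10, Ctdsp1, Mrpl49 (of the mitochondrial ribosome), Fdx1l (a mitochondrial ferredoxin), Slu7 (a splicing factor) and Ngly1 (which removes N-glycans from misfolded proteins) lay between -1.06 and -0.42.

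**Figure D5:**
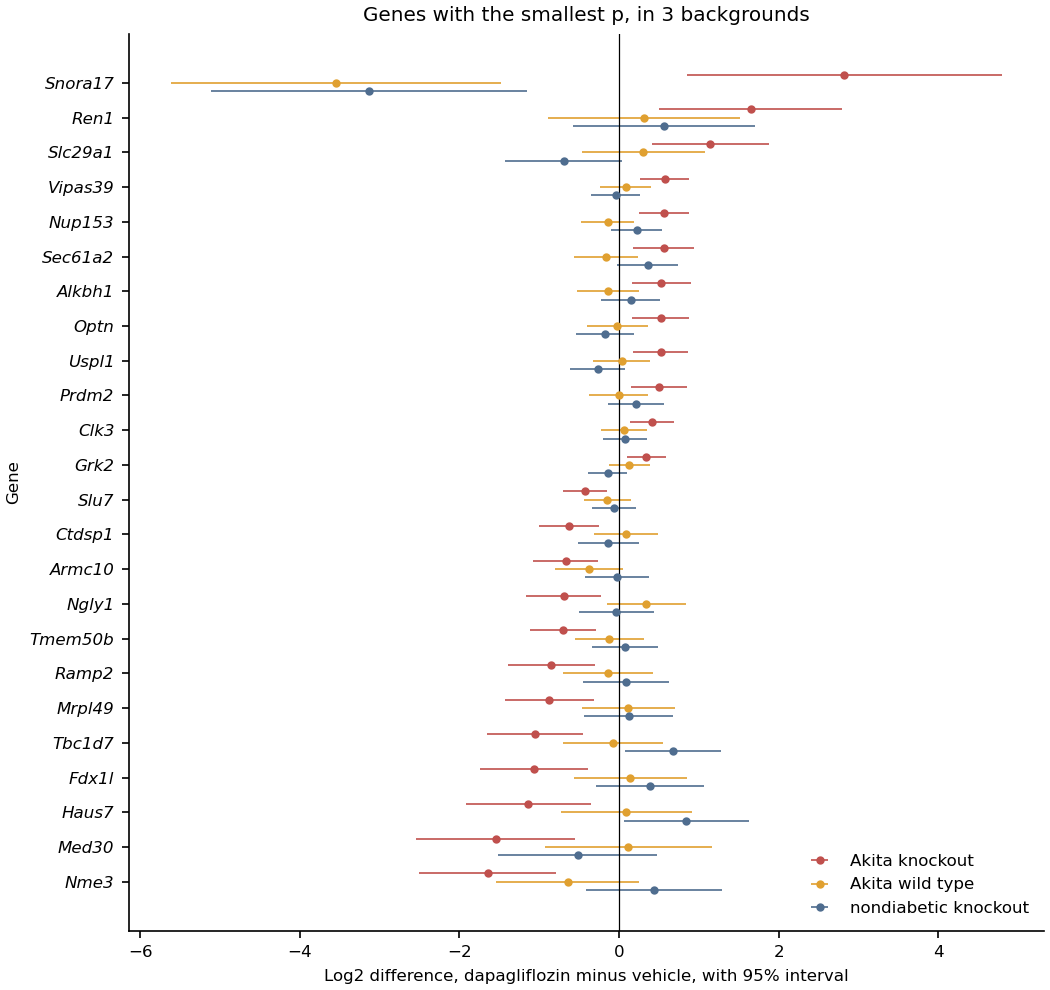
Log2 difference, dapagliflozin minus vehicle, with 95% interval for the 24 genes with the smallest p in Akita Sglt1 knockout tubules (red), and the same genes in Akita wild-type (yellow) and nondiabetic knockout tubules (blue). The genes were chosen for their values in Akita knockout tubules, so their distance from 0 there is a matter of selection; Snora17 was listed at 0 in many libraries.

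Whether the drug acted differently in Akita knockout tubules was tested as a difference of differences, which share no libraries. Against the drug difference in Akita wild-type tubules, 0 of 15424 genes were called by limma in either direction (0%; smallest Benjamini-Hochberg adjusted p 0.776), with 380 genes (2.46%) at an unadjusted p under 0.05. Against that in nondiabetic knockout tubules, 0 were called (0%; smallest adjusted p 0.669), with 602 genes (3.90%) at an unadjusted p under 0.05. In both, the smallest p belonged to Snora17, whose many listed 0 values are described above. Intervals of these differences were wider, extending by a median of 0.72 to either side against Akita wild-type and 0.70 against nondiabetic knockout tubules. The whole interval lay between -1 and 1 for 53.8% of genes against Akita wild-type and 53.6% against nondiabetic knockout tubules. Within each of the other genotypes the drug comparison also called 0 genes, in Akita wild-type tubules (368 at an unadjusted p under 0.05, 2.39%) and in nondiabetic knockout tubules (731, 4.74%).

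For Pck1 the drug differences stood side by side at 0.40 in Akita knockout, 0.28 in Akita wild-type and -0.35 in nondiabetic knockout tubules. The difference between the Akita knockout and Akita wild-type values was 0.12 (95% interval -0.79 to 1.02). For Umod the values were 0.71, -0.38 and -0.48 in the same order of groups, and for Hsph1 they were 0.96, -0.03 and -0.40. Tbc1d7 had -1.05 in Akita knockout, -0.07 in Akita wild-type and 0.67 in nondiabetic knockout tubules. For Tbc1d7 the difference between the Akita knockout and nondiabetic knockout values was -1.72. This difference of differences had an unadjusted p of 0.000173 in limma and a Benjamini-Hochberg adjusted p of 0.669, so it did not pass.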

How the data were processed

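Expression was measured by total RNA sequencing of laser-captured S3 tubules. Per the labels' protocols, RNA was isolated with a PicoPure kit and libraries were made from 0.5 ng of RNA with a stranded total RNA kit. The deposited values are TPM on a log10 scale, from a GRCm38 alignment per the submitters' processing notes. How reads were aligned and counted is not stated, and depth is unknown, so counting error cannot be separated from other spread. Plain TPM would have the same total in every library. The deposited values summed to between 984393 and 2253870 over the 52 libraries, so they are not plain TPM. How they were changed, and whether libraries were scaled to each other, is not stated. The table holds 52 libraries of 54 labelled samples and 19068 genes, and 19033 identifiers matched a symbol. The submitters' name for it includes the words removed outlier. Akita wild-type tubules with dapagliflozin have 5 libraries of 6 labelled samples, while both compared groups kept all 6. The reason for removal is not otherwise stated.

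Values were turned back to TPM, with blanks taken as 0. For 15424 genes averaging 1 TPM or more over all libraries, limma 3.58.1 (R 4.3.3, data.table version 1.17.8; eBayes with trend and robust settings) modelled log2(TPM + 1) by the mean of each of 9 groups, with Benjamini-Hochberg adjustment over all tested genes and a threshold of 0.05. Library measures were compared with exact permutation tests. Replicates are numbered in the order of the labels.

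The 39 pathway lists, the cell type lists, the groups and the tests were chosen with earlier results of these data known. Named genes are the 12 with the smallest p in each direction among genes with at least 5 TPM (predicted genes left out), the 3 members of each list with the smallest p, Slc5a1 and Slc5a2. The text gives some of these (some are not reported here), and Slc5a10, Slc2a2, G6pc, Fbp1, Slc9a3, Slc7a13, Havcr1, Mdm2, Hspa1a, Umod, Slc12a1, Slc14a2, Aqp2, Postn, mt-Co1 and mt-Nd4l were added for their role or values after the values were seen. Gene positions came from GENCODE vM21 and promoter sequences from RefSeq. Alternatives were another pseudocount, filters, scaling, weights, covariates and left-out libraries.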

Additional observations from a re-analysis of the deposited data

Results flagged for a closer look

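Of 308 groups of 6 libraries examined for genes named here and for library measures, 24 held a library far from the other 5, where chance alone flags about 1 in 20. No explanation was tested for any of them.

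In dapagliflozin libraries, Ren1 had 30.9 TPM in replicate 6, against 3.79 to 7.54 TPM in the others, Pck1 had 2369 TPM in replicate 3 against 1334 to 1567 TPM, and Slc5a10 had 1414 TPM in replicate 1 against 658 to 790.2 TPM. Ngly1 had 35.1 TPM in replicate 6 against 16.1 to 21.1 TPM. Replicate 3 was low for Tfeb (10.0 TPM), Cox5a (64.7 TPM) and Sdhc, a subunit of succinate dehydrogenase (14.6 TPM). Replicate 4 was low for Tbc1d7 (1.05 TPM), Mrpl49 (3.43 TPM) and Sc5d, an enzyme of cholesterol synthesis (1.599 TPM), and had the fewest genes with a value, 16947 against 17863 to 18109. Replicate 5 was low for Sec61a2 (22.7 TPM) and Fn1, which encodes fibronectin (18.2 TPM). Cyp4a14, a fatty acid hydroxylase, was listed at 0 in replicate 6.

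In vehicle libraries, replicate 2 was high for Optn (31.1 TPM) and Dcdc2a (36.8 TPM), low for Tmem50b (4.88 TPM) and listed at 0 for mt-Nd4l. Replicate 4 was high for Agtr1a (20.1 TPM) and low for Tef, a clock output factor (388 TPM), and Fmo1, a monooxygenase (281 TPM). Replicate 5 was high for Rab7 (291 TPM) and Cyp4a14 (12.7 TPM). Replicate 3 was low for Aldh1b1, an aldehyde dehydrogenase (13.9 TPM).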

How the results depend on the processing

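The count of 0 called genes held under all 23 alternatives of the Akita knockout comparison, with 278 to 666 genes at an unadjusted p under 0.05 in limma and a smallest adjusted p of 0.853 (array weights). The difference from the Akita wild-type response stayed at 0 under 33 alternatives (227 to 660 genes at an unadjusted p under 0.05, smallest adjusted p 0.0826 with no filter), and that from the nondiabetic knockout response under 34 (391 to 784 genes, smallest adjusted p 0.135). No paired analysis was possible because the labels give nothing that pairs a library of one group with a library of another. Leaving out the 3 libraries highest in Slc5a2 was chosen after seeing the data.

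Of 3451 values of named genes, 43 changed sign and the others kept their direction and stayed short of the threshold; the cause was not tested. With the log2 sum of TPM as a covariate the log2 differences were 0.0842 for Slc5a1, 0.0499 for Folr1, 0.13 for Slc5a10, -0.0221 for Slc9a3, 0.12 for Slc7a13 and 0.25 for mt-Nd4l. With the score of other cell types they were 0.00516 for Slc5a1, 0.0211 for Slc5a10 and 0.0323 for Slc7a13. With the score of S1 and S2 markers they were 0.19 for Slc5a2 and -0.0483 for Havcr1. With the percent of mitochondrial rRNA they were 0.0134 for Slc5a2 and 0.0263 for Slc5a10. With array weights they were 0.000547 for Slc5a10, 0.0342 for Slc7a13 and 0.16 for mt-Nd4l. Without the 3 libraries highest in Slc5a2 they were 0.0838 for Slc5a1, 0.51 for Slc5a2, -0.00849 for Fn1, 0.00482 for Sord, 0.000732 for Slc5a10 and 0.93 for mt-Nd4l. With single libraries left out the log2 difference ran from -0.12 to 0.0809 for Slc5a1, -0.56 to 0.45 for Slc5a2, -0.58 to 0.0236 for Cyp4a14, -0.11 to 0.26 for Slc2a5, -0.19 to 0.0811 for Slc5a10, -0.14 to 0.36 for Havcr1 and -0.24 to 0.11 for Slc7a13.

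Rescaling by the median ratio moved the median of all genes by less than 0.001. Its factors for the 12 compared libraries lay between 0.949 and 1.05, so this rescaling could change little. Other ways of scaling were not tested by it. Depth is unknown, so the precision of genes with few TPM could not be assessed apart from the spread between libraries.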
